A study of Mus musculus with 12 samples.

Results

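Il17a and Il21 were followed over 12 Affymetrix Mouse Genome 430 2.0 arrays of mouse CD4+ T cells, 3 arrays in each of 4 groups. The measurements are those of every probe set annotated to Il17a or to Il21 and to no other gene. This gave 3 of the 45037 probe sets that are not controls, 1 for Il17a and 2 for Il21, and 2 of the 18193 genes with a probe set of their own. All 3 probe sets lay above the floor used for testing in both comparisons, so no member was left out.

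The SKG group held CD4+ T cells without the folate receptor FR4, taken from lymph nodes of female SKG mice at 40 weeks of age. SKG is a strain on the BALB/c background with a point mutation in Zap70, a kinase of the T cell receptor, and it develops autoimmune arthritis. The BALB group held the same kind of cells from female BALB/c mice of 40 weeks, except that replicate 1 is labelled CD4+ cells of spleen and lymph node with no FR4 sort. Both groups were stimulated with PMA, a phorbol ester that activates protein kinase C, and ionomycin, a calcium ionophore, so levels here are those of stimulated cells.

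The IFN-γ-deficient transfer group held CD4+ cells of IFN-γ knockout BALB/c mice given to RAG2 knockout BALB/c hosts. The IL-6-deficient transfer group held CD4+ cells of IL-6 knockout BALB/c mice given to hosts lacking both IL-6 and RAG2. Cells of both groups came from the spleens of female hosts 7 days after transfer, with an age of 7 weeks on the labels, and these labels name no stimulation. All groups are named here as their labels give them. RAG2-deficient hosts make no T or B cells of their own. No transfer of unmodified cells is analysed here, and host and donor genotype change together, so the part of the lost IFN-γ, of the lost IL-6 and of the host cannot be told apart.

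Interleukin-17A is the defining secreted cytokine of Th17 cells, the helper T cells that recruit neutrophils and take part in autoimmune arthritis. It acts through a receptor of IL-17RA and IL-17RC on epithelial, stromal and myeloid cells, where the adaptor Act1 and TRAF6 start NF-κB signalling. Interleukin-21 is a cytokine of the common gamma chain family, made by Th17 cells and by follicular helper T cells. It acts through IL-21R and the common gamma chain, with JAK1, JAK3 and STAT3, on B cells, on cytotoxic cells and on the T cells that make it. In mice, IL-6 with TGF-β starts Th17 differentiation through STAT3, IL-21 reinforces it, and IFN-γ restrains it.

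The promoters of the 2 genes are printed because both genes were higher in SKG than in BALB cells on every array. Each window runs from 250 bases before to 50 bases after the start site of the RefSeq gene in GRCm38.p6, written 5′ to 3′ on the gene's own strand. Il17a lies on the plus strand with the window at chr1:20730655-20730954, and Il21 on the minus strand with the window at chr3:37232587-37232886. Capitals mark every match to the motifs searched on both strands. These were AGGTCA, a core element bound by nuclear receptors, GGAAA, the core bound by NFAT, TGANTCA, the AP-1 site, TTCNNNGAA, the STAT site, and TATAAA, the TATA box.
Il17a: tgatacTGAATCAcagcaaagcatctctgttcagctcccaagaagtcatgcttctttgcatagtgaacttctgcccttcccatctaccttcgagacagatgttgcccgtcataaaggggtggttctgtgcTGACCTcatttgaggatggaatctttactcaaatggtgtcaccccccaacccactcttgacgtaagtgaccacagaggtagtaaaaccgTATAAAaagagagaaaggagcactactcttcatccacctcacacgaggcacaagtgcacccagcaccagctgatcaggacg
Il21: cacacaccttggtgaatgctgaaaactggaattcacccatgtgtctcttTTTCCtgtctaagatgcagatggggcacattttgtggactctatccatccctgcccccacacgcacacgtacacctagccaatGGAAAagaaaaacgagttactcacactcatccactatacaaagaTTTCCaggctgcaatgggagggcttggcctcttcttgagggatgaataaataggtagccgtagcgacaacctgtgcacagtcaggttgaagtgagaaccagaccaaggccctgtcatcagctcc

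In the Il17a window, counted from the start site, TGACCT, the reverse complement of AGGTCA, began at -120, TGAATCA began at -244 and TATAAA began at -31. In the Il21 window GGAAA began at -118, and its reverse complement TTTCC began at -201 and -74. The windows shared no motif of the 5, and neither held the STAT letters. Of 32851 such windows in the genome 16.3% held the nuclear receptor element, 61.3% the NFAT core, 7.81% the AP-1 letters, 8.3% the STAT letters and 13.6% the TATA letters. A match describes the letters of the window and is no measure of binding.

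Il17a was bright in SKG cells and dim in BALB cells. The Il17a probe set 1421672_at had deposited intensities of 6278.5, 5624.3 and 10606.7 on SKG arrays, against 187.5, 153.1 and 456.9 on BALB arrays, in the order of replicates 1 to 3. The lowest SKG array stood far above the highest BALB array, so the groups did not overlap, as was the case in the same direction for 24.9% of the 12076 genes tested in this comparison. Between arrays of the same replicate number the SKG intensity was 33.5, 36.7 and 23.2 times that of BALB.

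Il21 showed the same order on both of its probe sets. The brighter one, 1450334_at, had 7209.2, 7084.2 and 8520.8 on SKG arrays, against 647.2, 772.6 and 1213.4 on BALB arrays. The dimmer one, 1447288_at, had 1516.6, 959.7 and 594.5 on SKG arrays, against 41, 56.7 and 29.1 on BALB arrays. Neither probe set overlapped between the strains, and the brighter one varied less among the SKG arrays than the dimmer one. Between same-numbered arrays the brighter probe set was 11.1, 9.17 and 7.02 times as bright in SKG, and the dimmer one 37.0, 16.9 and 20.4 times.

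**Figure D1:**
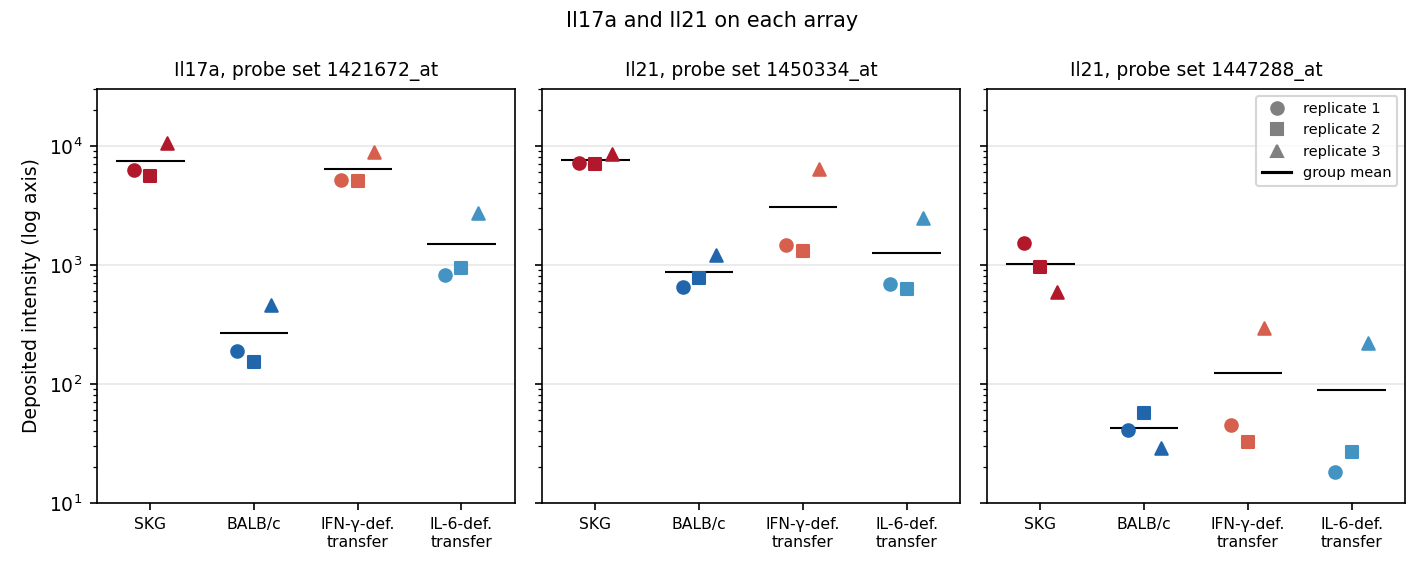
Deposited intensity (vertical axis, log scale) of the Il17a probe set and both Il21 probe sets in the 4 groups, with a point per array shaped by replicate number and a bar at the group mean. SKG arrays sit above all BALB arrays in every panel, and replicate 3 is the highest array of both transfer groups.

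In the transfer groups, whose labels name no stimulation, Il17a had 5122.9, 5080.6 and 8790.9 in the IFN-γ-deficient transfer, against 824.7, 944 and 2702 in the IL-6-deficient transfer. All 3 IFN-γ-deficient arrays were above all 3 IL-6-deficient arrays, which held for 5.41% of the 12260 genes tested here, and between same-numbered arrays Il17a was 6.21, 5.38 and 3.25 times as bright. Replicate 3 was the highest array of both groups.

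Il21 was higher in the IFN-γ-deficient transfer at every replicate number, but the transfer groups overlapped. The brighter Il21 probe set had 1477.4, 1312.7 and 6334.7 in the IFN-γ-deficient transfer, against 690.1, 630.2 and 2477.7 in the IL-6-deficient transfer. Replicate 3 of the IL-6-deficient transfer lay above the lower 2 IFN-γ-deficient arrays, although each same-numbered pair ran the same way, at 2.14, 2.08 and 2.56 times. The dimmer probe set had 44.9, 32.3 and 291.4 in the IFN-γ-deficient transfer, against 18.2, 26.8 and 220.7 in the IL-6-deficient transfer, or 2.47, 1.21 and 1.32 times between same-numbered arrays.

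Replicate 3 of both transfers stood apart for these genes. On the log2(intensity + 16) scale used for all tests, Il21 was 2.08 higher in replicate 3 than in the mean of the other 2 arrays of the IFN-γ-deficient transfer, and 2.11 higher in the IL-6-deficient transfer. Of the 12260 genes tested, 0.253% and 0.351% were higher by at least as much. For Il17a the same differences were 0.64 and 1.81, reached by 9.36% and 0.661% of tested genes, and the dimmer Il21 probe set was higher by 2.77 and 2.88. Il17a was also 0.97 higher in replicate 3 of BALB, reached by 2.19% of the 12076 genes tested there, and 0.16 higher in SKG. Il21 differed by -0.38 in SKG and 0.41 in BALB, and its dimmer probe set by -1.42 and -0.97.

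Replicate 3 of both transfers also differed in a measure of RNA quality. The 3′ to 5′ signal ratio of the Gapdh control probe sets was 7.99 and 9.33 on replicate 3 of the IFN-γ-deficient and IL-6-deficient transfers, against 2.42 to 2.84 on the other 4 transfer arrays. For the actin control probe sets it was 3.81 and 5.13, against 1.60 to 1.67. Actin also differed between the strains, at 1.93 to 2.63 on SKG arrays and 2.95 to 3.98 on BALB arrays. The part of RNA quality in the levels of Il17a and Il21 was not tested. All arrays hold bulk RNA, so more cells making a cytokine and more transcript in each such cell cannot be told apart.

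With all 12 arrays normalized together, Il17a was ordered SKG at 12.87, IFN-γ-deficient transfer at 12.65, IL-6-deficient transfer at 10.26 and BALB at 8.0 in mean log2 level. SKG and the IFN-γ-deficient transfer overlapped, whereas each lower neighbour was separated from the one above it. Il21 followed the same order, at 12.95, 11.24, 9.94 and 9.70, but here SKG was separated from all other groups and the lower 3 overlapped in turn. The IL-6-deficient transfer lay above BALB through replicate 3 alone. Its replicates 1 and 2, at 9.26 and 9.20, were below every BALB array, which ran from 9.43 to 9.97. The dimmer Il21 probe set had 9.97, 6.63, 6.25 and 5.83, again with SKG alone standing clear. SKG and BALB cells differ from the transferred cells in age, tissue and host together, and in whether the label names a stimulation, so this order is a description without a test.

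**Figure D2:**
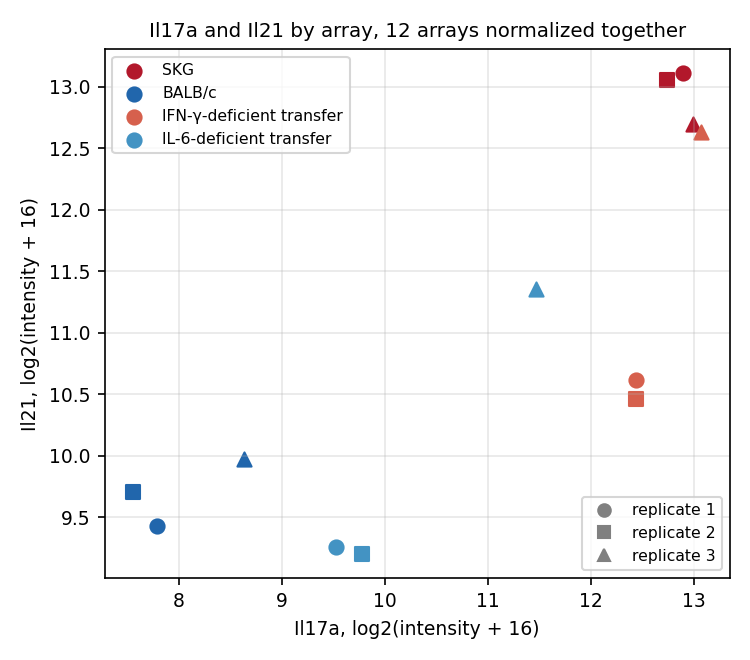
Log2(intensity + 16) of Il17a (horizontal axis) and of the brighter Il21 probe set (vertical axis) on each of the 12 arrays, coloured by group and shaped by replicate number, with all arrays normalized together. SKG arrays lie at the top right, BALB arrays furthest left and IL-6-deficient replicates 1 and 2 lowest, IFN-γ-deficient replicates 1 and 2 combine an Il17a level close to SKG with an Il21 level well below it, and IFN-γ-deficient replicate 3, at 13.07 and 12.63, lies next to the SKG arrays, above them for Il17a and below them for Il21.

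The strain difference of both genes exceeded the spread between replicates. Il17a averaged 12.91 ± 0.12 in SKG and 7.99 ± 0.57 in BALB (log2 level, SD, n = 3 each), a log2 fold change of 4.92 ± 0.25 (SE, 95% interval 4.35 to 5.49, limma adjusted p = 1.8e-05). Il21 averaged 12.99 ± 0.22 in SKG and 9.72 ± 0.28 in BALB, a log2 fold change of 3.27 ± 0.17 (SE, 95% interval 2.89 to 3.64, limma adjusted p = 1.8e-05). In this comparison 15.7% of the 12076 genes tested passed as higher, and by size of the rise Il17a ranked 2 and Il21 ranked 22. Among all 27022 probe sets that reached the floor, 10.3% passed as higher, and the dimmer Il21 probe set was among them with 4.15 ± 0.43 (SE, limma adjusted p = 0.00047). Without BALB replicate 1, the array of another tissue and sort, the log2 fold change was 4.83 for Il17a and 3.15 for Il21 (limma adjusted p = 0.00020 for both).

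The transfer difference of Il17a was 2.38 ± 0.49 on the log2 scale (SE, 95% interval 1.25 to 3.52), from means of 12.62 ± 0.37 in the IFN-γ-deficient and 10.24 ± 1.05 in the IL-6-deficient transfer (SD, n = 3 each). It did not pass over all genes (limma adjusted p = 0.38), and it passed with the replicate number as a block (adjusted p = 0.00074). Il21 averaged 11.21 ± 1.20 against 9.92 ± 1.22, a difference of 1.29 ± 0.74 (SE, 95% interval -0.45 to 3.02, limma adjusted p = 1.0), and with the block 1.29 ± 0.08 (95% interval 1.11 to 1.47, adjusted p = 8.6e-05). Of the 12260 genes tested 0.0653% passed as higher without the block and 0.775% with it. By size of the rise Il17a ranked 8 and Il21 ranked 32.

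Single arrays moved the transfer values. Without IL-6-deficient replicate 3 the Il17a difference was 2.94 and passed (limma adjusted p = 0.0070), and with any other array left out it did not pass. For Il21 the difference was 0.59 without IFN-γ-deficient replicate 3 and 1.96 without IL-6-deficient replicate 3, and passed in neither fit. The dimmer Il21 probe set gave 0.38 ± 0.99 (SE, 95% interval -1.92 to 2.69), which turned to -0.54 without IFN-γ-deficient replicate 3. Its same-numbered arrays differed by 0.82, 0.02 and 0.31, and with the block the difference was 0.38 ± 0.19 (SE, 95% interval -0.03 to 0.80, adjusted p = 0.43) and did not pass.

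**Figure D3:**
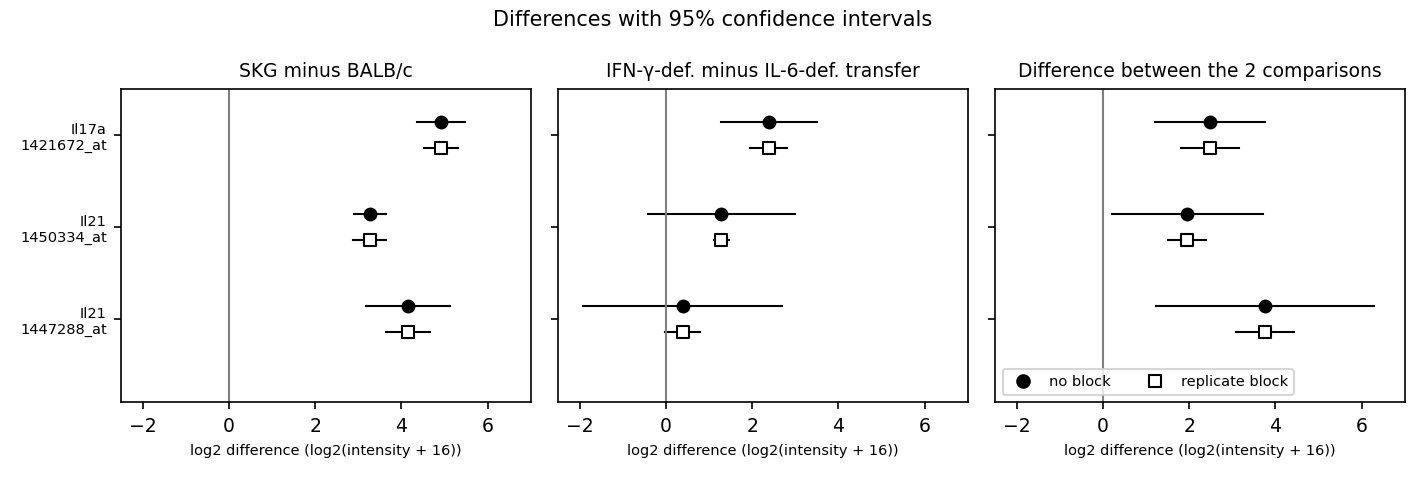
Log2 differences (horizontal axes) of the Il17a probe set and both Il21 probe sets for SKG minus BALB/c, for IFN-γ-deficient minus IL-6-deficient transfer, and for the first difference minus the second, with bars for 95% confidence intervals, filled circles without and open squares with the replicate block. The SKG minus BALB/c intervals lie far above 0, and the Il21 transfer intervals without the block include 0.

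Set against each other, the strain difference of Il17a was larger than its transfer difference by 2.48 ± 0.60 on the log2 scale (SE, 95% interval 1.19 to 3.77, limma interaction over 12 arrays, adjusted p = 0.024, and 0.00030 with the block). In that test 4.88% of 12176 genes passed with a positive difference. The Il17a call was lost on leaving out replicate 1 or replicate 2 of SKG, of BALB or of the IFN-γ-deficient group (adjusted p between 0.054 and 0.064). For Il21 the strain difference was larger by 1.95 ± 0.82 (SE, limma adjusted p = 0.18, or 0.00010 with the block), and for its dimmer probe set by 3.76 ± 1.17 (adjusted p = 0.090, and 2.7e-05 with the block). With the block 15.3% of genes passed with a positive difference. Without IFN-γ-deficient replicate 3 the Il21 values were 2.64 (adjusted p = 0.031) and, for the dimmer probe set, 4.69 (0.022), and without IL-6-deficient replicate 3 they were 1.23 and 2.81, which did not pass.

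The log2 change of Il17a exceeded that of the brighter Il21 probe set by 1.66 between the strains and by 1.10 between the transfers. Against the dimmer probe set, whose changes were 4.15 and 0.38, this was not tested. An exact permutation test over arrays, two-sided, gave p = 0.1 and p = 0.2, and 0.1 is the smallest p that 3 arrays against 3 allow.

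A receptor chain of each cytokine was lower in SKG cells, Il17ra for IL-17A and Il21r for IL-21. Il17ra, the receptor chain shared by several IL-17 cytokines, had 1013.1, 996.3 and 849.3 on SKG arrays, against 2040.2, 1926.9 and 1702 on BALB arrays. Il17ra fell by 0.86 ± 0.23 on the log2 scale (SE, limma adjusted p = 0.022), where 11.8% of tested genes passed as lower, which leaving out BALB replicate 1 or BALB replicate 2, or taking the median of probe sets, took above the threshold (adjusted p of 0.086, 0.075 and 0.092). Il21r, the chain that binds IL-21, had 226.3, 243.3 and 293.1 on SKG arrays, against 490.5, 408.2 and 705.6 on BALB arrays. Il21r fell by 0.95 ± 0.16 (SE, adjusted p = 0.0030), and the groups did not overlap, as was so in that direction for 18.4% of tested genes.

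Of the 5 IL-17 receptor chains 3 were bright enough to test. Il17re, the chain that binds IL-17C, had 19.9, 15.1 and 108.6 on SKG arrays, against 43, 40.9 and 59.4 on BALB arrays, which overlapped, and its log2 change of -0.29 did not pass (limma adjusted p = 0.66). Il17rd, an inhibitory chain, was at 2.7 to 6.9 on SKG arrays and 41.9 to 56.9 on BALB arrays. Its mean SKG level lay below the floor, so it entered the test only through BALB, and nothing is read from its call. Between the transfers Il17ra differed by -0.46 (limma adjusted p = 0.91) and Il21r by -0.26 (adjusted p = 1.0). With the block 1 of the 3 tested IL-17 receptor chains rose, Il17re, by 1.34 (limma adjusted p = 0.031), where 0.775% of all tested genes rose. Il17re had 165.7, 109.1 and 57.6 in the IFN-γ-deficient transfer, against 34.6, 63.8 and 10.2 in the IL-6-deficient transfer. These intensities were dim and overlapped.

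Downstream of the IL-17 receptor, 3 of 7 tested genes fell in SKG and 0 rose, with a median of -0.49 against 0.06 over all tested genes, where 11.8% fell and 15.7% rose. They were Zc3h12a, the RNase Regnase-1 that cuts inflammatory transcripts, at -1.17 ± 0.21 (SE), Traf6, the ubiquitin ligase of the pathway, at -0.86 ± 0.16, and Tnfaip3, the NF-κB inhibitor A20, at -0.66, whose call was lost without normalization between arrays (adjusted p = 0.10) and with all 12 arrays in one fit (0.11). Of 6 tested genes on the IL-21 receptor axis, 2 fell and 1 rose. Il21r and Socs1, an inhibitor of JAK signalling, fell, Socs1 by 0.98 ± 0.28 (SE, adjusted p = 0.032, lost without SKG replicate 1 or 2, without the filter and without normalization, with an adjusted p up to 0.10). Jak3 rose by 0.90 ± 0.27 (SE, adjusted p = 0.037), a call lost without replicate 1 or 2 of either strain, without the filter, without normalization and with all 12 arrays in one fit, with an adjusted p up to 0.13. No gene of these 2 lists passed between the transfers, with or without the block.

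Several other genes of Th17 effector cells rose beside Il17a. Of 9 tested, 6 had a mean level above the floor of 4.75 in both strains, and 4 of these rose in SKG and 0 fell, with a median log2 change of 3.08. Over all 11121 genes with such levels 16.2% passed as higher and the median was 0.05. Ccr6, the chemokine receptor of Th17 cells, had 528.9, 434.7 and 611.4 on SKG arrays, against 38.8, 55.3 and 82.7 on BALB arrays, a rise of 2.92 ± 0.19 (SE). Tmem176b, a membrane protein, rose by 3.41 ± 0.26, Serpinb1a, a protease inhibitor, by 3.24 ± 0.31 and Ccl20, the ligand of CCR6, by 3.65 ± 0.60. Il1r1, the receptor through which IL-1 promotes Th17 cells, had 161.2, 266.3 and 374.8 on SKG arrays, against 3.7, 3.6 and 18.5 on BALB arrays, and Tmem176a, a relative of Tmem176b, had 201.2, 319 and 289.2 against 13.5, 6.5 and 10.1. The mean BALB levels of Il1r1, Tmem176a and Ltb4r1, a leukotriene receptor, lay below the floor, at 4.54, 4.71 and 4.24, so these 3 entered the test only through SKG, and nothing is read from their calls. Rora, a nuclear receptor that promotes Il17a, was at -0.07 ± 0.18 and Ramp1, a receptor modifying protein, at -0.20 ± 0.20, and neither passed.

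Between the transfers 4 of the 9 rose and 0 fell, with a median of 2.08 against 0.00 over all tested genes, of which 0.0653% rose. With the block 8 of the 9 rose, where 0.775% of all tested genes did. Il1r1 had 612.4, 609.2 and 440.1 in the IFN-γ-deficient transfer, against 15.9, 41.2 and 8 in the IL-6-deficient transfer, a rise of 4.06 ± 0.33 (SE, limma adjusted p = 0.0086). This size ran from 2.03 with the median of probe sets to 4.95 with an added constant of 1, and the call was lost without replicate 1 or 2 of the IFN-γ-deficient or replicate 1 of the IL-6-deficient transfer (adjusted p up to 0.085). Serpinb1a rose by 3.14 ± 0.25, Ccl20 by 2.92 ± 0.25 and Tmem176a by 2.08 ± 0.24 (limma adjusted p = 0.042 for the last). Tmem176a had 124.7, 116.2 and 80.3 in the IFN-γ-deficient transfer, against 21.7, 5.7 and 12.4 in the IL-6-deficient transfer, where it lay close to the floor. The Tmem176a call was lost under 12 of 20 alternatives, among them an added constant of 1, no filter, no normalization and the omission of any transfer array, and the Serpinb1a call was also lost with the median of probe sets. The count was 0 without IFN-γ-deficient replicate 1, 1 without replicate 2 of that group or replicate 1 or 2 of the IL-6-deficient transfer, and 5 without IL-6-deficient replicate 3. Ccr6 differed by 3.02 ± 0.64 (SE), with an adjusted p = 0.40 without and 0.0020 with the block.

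**Figure D4:**
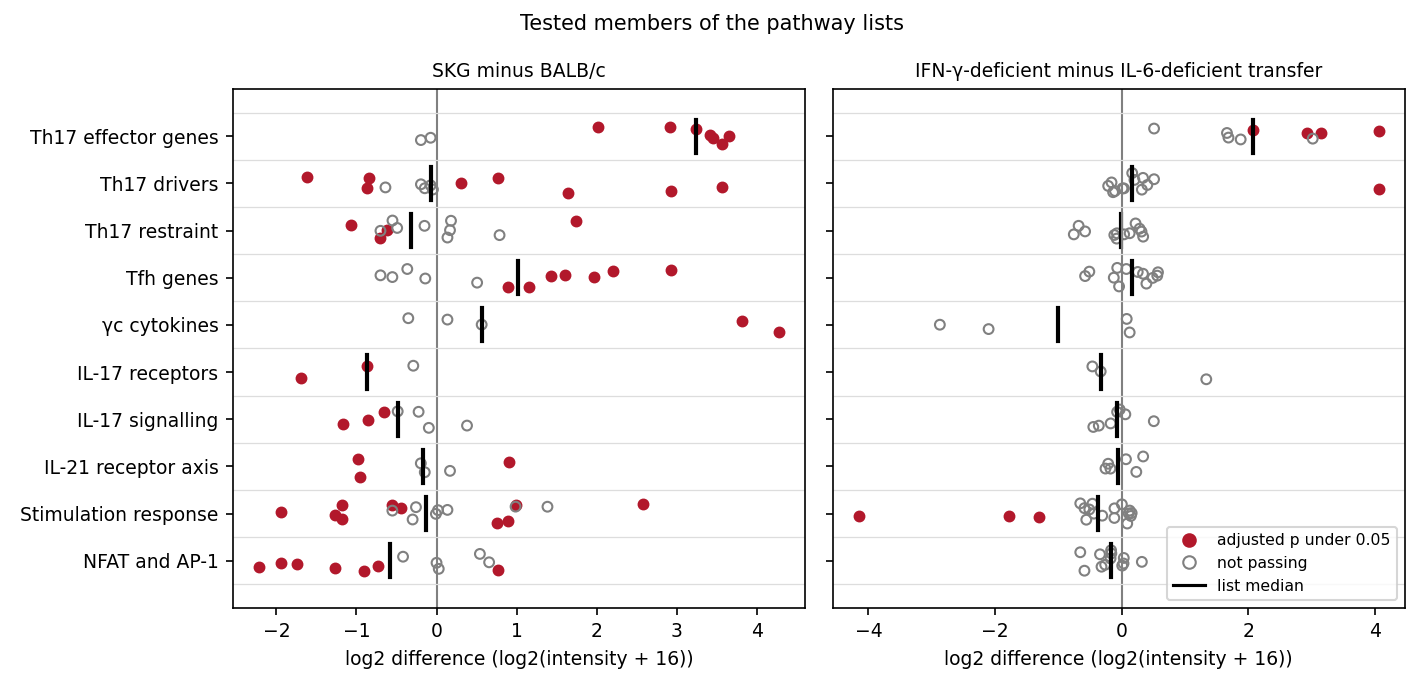
Log2 difference (horizontal axis) of each tested member of 10 pathway lists (rows), for SKG minus BALB/c on the left and IFN-γ-deficient minus IL-6-deficient transfer on the right, with filled red points for adjusted p under 0.05, open points for the others and a bar at each list's median. In both panels the median of Th17 effector genes lies furthest to the right, at 3.24 and 2.08, and the left one includes the 3 genes whose mean BALB level was below the floor.

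Of 13 tested genes that promote Th17 differentiation, 5 passed as higher and 3 as lower in SKG, with a median of -0.07. Of all tested genes 15.7% passed as higher and 11.8% as lower. The list's counts were 3 and 1 without SKG replicate 1 or SKG replicate 2, and 4 passed as lower without SKG replicate 3. Among the 5 is Il1r1, which entered only through SKG. Maf, a transcription factor that induces Il21, had 4030.3, 3467.3 and 1586.6 on SKG arrays, against 367.3, 383.9 and 401.9 on BALB arrays, and rose by 2.93 ± 0.41 (SE). Ahr, the aryl hydrocarbon receptor, rose by 1.64 ± 0.19, whereas Tgfbr2, a TGF-β receptor chain, fell by 0.87 ± 0.17. Stat3, the factor activated by IL-6 and IL-21, was at -0.15 and did not pass. Between the transfers Il1r1 was the only gene of this list to pass, and Maf was at 0.34 ± 0.18.

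Of 12 tested genes that restrain Th17 cells, 3 fell and 1 rose in SKG. With the block 5 fell and 2 rose, where 1769 of the 12076 tested genes fell and 2402 rose. Without SKG replicate 3, 2 rose. The 1 rise is a smaller share than the 15.7% of all tested genes, of which 11.8% fell. Tbx21, which encodes the Th1 factor T-bet, fell by 1.07 ± 0.12 (SE), Stat5a, a factor activated by IL-2, by 0.71 ± 0.12 and Gfi1, a transcriptional repressor, by 0.62 ± 0.10. The Gfi1 call was lost without normalization between arrays (adjusted p = 0.060) and with all 12 arrays in one fit (0.18). Foxp3, the factor of regulatory T cells, rose by 1.74 ± 0.21, at 201 to 321.5 on SKG arrays and 66.1 to 83.3 on BALB arrays. None of the 12 passed between the transfers without the block.

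Il21 is also a gene of follicular helper T cells, and 7 of 12 tested genes of that list rose in SKG while 0 fell, with a median of 1.02, against 15.7% and 11.8% of all tested genes. With the block 7 rose and 2 fell, where 2402 of the 12076 tested genes rose and 1769 fell. The 2 were Bcl6, a transcription factor of these cells, at -0.70 and Cd40lg, the CD40 ligand, at -0.55. Their limma adjusted p was 0.034 and 0.033 with the block, and 0.12 and 0.10 without it. The count of rises ran from 5 to 7 as arrays were left out in turn, and 2 genes fell without SKG replicate 3 and 1 without BALB replicate 2 or BALB replicate 3. Maf is a member of this list too. Icos, a costimulatory receptor, had 7106.1, 7695.4 and 10491.8 on SKG arrays, against 2358, 2944.6 and 3861 on BALB arrays, and rose by 1.60 ± 0.12 (SE). Slamf6, an adhesion receptor, rose by 2.20 ± 0.23 and Pdcd1, the inhibitory receptor PD-1, by 1.43 ± 0.16. Between the transfers 0 of the 12 passed. With the block 1 rose, Slamf6 at 0.49 (limma adjusted p = 0.049), where 0.775% of all tested genes rose.

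Among 5 cytokines of the common gamma chain family other than Il21, 2 rose in SKG and 0 fell, where 15.7% and 11.8% of all tested genes did. Il4, the Th2 cytokine, had 10182.9, 10906.6 and 7686.9 on SKG arrays, against 477.1, 673 and 445.6 on BALB arrays, and rose by 4.28 ± 0.31 (SE). Il9 rose by 3.81 ± 0.55, whereas Il2, a cytokine of activated T cells that restrains Th17 cells, was at 0.14 (limma adjusted p = 0.20). Il2 ran from 8165.7 to 14712.9 on SKG arrays and from 8239.5 to 13737.9 on BALB arrays, and from 8962.7 to 11269.9 in the IFN-γ-deficient and from 9314.2 to 10166.4 in the IL-6-deficient transfer, whose labels name no stimulation. Between the transfers Il4 ran opposite to Il21, with 625.1, 436.6 and 3308.4 in the IFN-γ-deficient transfer, against 5665.2, 6208.3 and 12992.1 in the IL-6-deficient transfer. Il4 differed by -2.87 ± 0.72 there (SE, limma adjusted p = 0.58, or 0.0016 with the block, where 1.01% of tested genes passed as lower). Of the 4 family members tested between the transfers 0 passed without the block, and 2 fell with it. Il9 ran the same way as Il4, with 38, 38.9 and 119.9 in the IFN-γ-deficient transfer, against 150, 134.6 and 1463.8 in the IL-6-deficient transfer.

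Since PMA and ionomycin act through NFAT and AP-1, genes of that response were read beside the cytokines. Of 18 tested genes of the response to stimulation 4 rose and 6 fell in SKG, with a median of -0.13. The rises are a share near the 15.7% of all tested genes, of which 11.8% fell. With the block 5 rose and 9 fell, where 2402 of the 12076 tested genes rose and 1769 fell. Csf2, the cytokine GM-CSF, rose by 2.57 ± 0.36 (SE), while the early genes Nr4a1 and Fosb fell by 1.18 ± 0.09 and 1.94 ± 0.22. Fos, an AP-1 subunit, fell by 1.27, a call lost with all 12 arrays in one fit (adjusted p = 0.26). Of 12 NFAT and AP-1 genes 1 rose (0 without SKG replicate 1 or SKG replicate 2, and 2 without BALB replicate 3 or with the block) and 6 fell, among them the AP-1 subunit Jun, which fell by 2.21 ± 0.18, and its relative Fosl1, which fell by 1.74 ± 0.24. Their part in the strain difference of Il17a and Il21 was not tested.

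Between the transfers 3 of the 18 fell and 0 rose, where 0.0489% of tested genes passed as lower. With the block 6 fell, where 1.01% of tested genes did. The count was 1 without IFN-γ-deficient replicate 1 or IL-6-deficient replicate 2, and 2 without IFN-γ-deficient replicate 2 or IL-6-deficient replicate 1. The 3 were Ifng, Csf2 at -1.31 ± 0.10 (SE) and Il3, a growth factor of myeloid cells, at -1.78 ± 0.15. Ifng is the gene knocked out in the donors of the IFN-γ-deficient transfer, so its fall is not read as a result of this list. With all 12 arrays in one fit the Csf2 and Il3 calls were lost, and that of Csf2 also without the trend. Of the genes named in the labels, Ifng had 744.1, 454.7 and 764.1 in the IFN-γ-deficient transfer, against 11966.8, 11996.7 and 12883.8 in the IL-6-deficient transfer, a fall of 4.15 ± 0.22 on the log2 scale (SE, limma adjusted p = 0.0011). Il6 had 7.4, 12.4 and 87 in the IFN-γ-deficient transfer, against 35.5, 40.6 and 201.1 in the IL-6-deficient transfer. Il6 was thus not lower where the label names its deletion, and since the deleted part is not given in the sources used here, Il6 does not check that label. In SKG, Ifng rose by 0.75 ± 0.16 and Il6 by 1.68 ± 0.36, and Zap70, the gene mutated in the strain, fell by 0.60 (adjusted p = 0.014, lost without SKG replicate 1, BALB replicate 1 or BALB replicate 2, with an adjusted p up to 0.067).

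Markers of T cells and of other sources of these cytokines were read as well. Cd3d, a chain of the T cell receptor complex, ran from 1458.5 to 1836.1 on SKG arrays and from 1351.5 to 1794.4 on BALB arrays. Other bright genes of the CD4+ T cell list ran both ways. Cd3g, another chain of that complex, had 1982.3, 1941.2 and 1246.9 on SKG arrays, against 913.7, 1106.5 and 637.3 on BALB arrays. Cd5 had 1619.3, 1738.4 and 3779 on SKG arrays, against 4550.3, 3730.6 and 6002.6 on BALB arrays. Of 9 tested genes of the CD4+ T cell list 1 rose and 3 fell in SKG, where 15.7% and 11.8% of all tested genes did. With single arrays left out 1 or 2 rose and 1 to 3 fell (1 without SKG replicate 1, SKG replicate 2 or BALB replicate 3). With the block 2 rose, where 2402 of the 12076 tested genes did. Cd4 was dim on these arrays, at 69.7 to 153.3 in SKG and 72.2 to 105.9 in BALB. Zbtb16, the factor of natural killer T and other innate-like T cells, had 338.5, 698 and 194.9 on SKG arrays, against 17.3, 23.9 and 37.4 on BALB arrays, and rose by 3.24 ± 0.44 (SE, limma adjusted p = 0.0013). The other gene to rise among 4 tested of the natural killer and natural killer T list was Klrd1, the natural killer receptor CD94, by 0.70 ± 0.21 (adjusted p = 0.039), and 1 gene rose without SKG replicate 1 or any BALB array. With the block 3 rose, where 2402 of the 12076 tested genes did. The list's summed intensity was 491.6 to 1430.5 on SKG arrays and 161.5 to 264.6 on BALB arrays, while Ncr1 and Klra1, which define natural killer cells, were below the floor. A large part of that sum was Eomes, a transcription factor, with 734.4, 660.4 and 123.8 on SKG arrays, against 102.2, 131.8 and 142.6 on BALB arrays. Eomes did not pass without the block.

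Of 4 tested genes of the γδ T cell and innate lymphoid cell list 2 rose, Il7r and Id2 (1 without replicate 1 or 2 of either strain, and 3 without replicate 3 of either). Of all tested genes 15.7% rose and 11.8% fell. The list's summed intensity was 6081.3 to 6505.1 in SKG and 2232.9 to 6049.1 in BALB. Nearly all of it was Id2, at 4060.9 to 4951.6 in SKG and 1735.5 to 5148.5 in BALB, and Il7r, at 1433.2 to 1966.1 and 460.4 to 816.7. Blk, a kinase of B cells and γδ T cells, was at 0.97 (limma adjusted p = 0.052) and Cd163l1, a scavenger receptor of γδ T cells, at -0.67 (adjusted p = 0.099). The γδ receptor genes are not analysed here, and Sox13 was below the floor. Of 6 B cell and 10 myeloid genes tested 0 passed. With the block 1 myeloid gene was lower, as were 1769 of the 12076 tested genes. Of 5 plasma cell genes 3 rose, and the list's sum was 6264.2 to 7659 in SKG and 2829.8 to 4765.1 in BALB. Most of that sum was Xbp1, at 4246.1 to 6294.4 in SKG and 2133.1 to 3501.3 in BALB. Sdc1, a surface marker of plasma cells, was at 8.3 to 26.3 in SKG and 24.8 to 40.8 in BALB. Jchain overlapped, at 523.3 to 765.7 in SKG and 144.7 to 765.6 in BALB. The single mast cell gene tested, Kit, fell. Cd8b1, a marker of cytotoxic T cells, had 10, 13.2 and 95.7 on SKG arrays, against 208.4, 209.2 and 278.9 on BALB arrays, and fell (limma adjusted p = 0.0036). Cd8a, its partner chain, ran the other way, with 15.3, 36.3 and 46.9 on SKG arrays, against 8.9, 15.3 and 7 on BALB arrays (log2 change 0.81, adjusted p = 0.072), and passed without SKG replicate 1. Between the transfers no gene of the CD4+ T cell, natural killer, γδ, mast cell, CD8, B cell, plasma cell or myeloid lists passed without the block. With the block 1 of 9 CD4+ T cell, 1 of 5 plasma cell and 1 of 2 mast cell genes rose. Of all genes tested between the transfers 0.775% rose with the block. The myeloid genes S100a8 and S100a9 were highest in IL-6-deficient replicate 3. S100a8 had 28.9, 133.9 and 128.9 in the IFN-γ-deficient transfer, against 51.4, 11.1 and 800.4 in the IL-6-deficient transfer. S100a9 had 2.6, 59.1 and 45.2, against 18.2, 1.2 and 185.2. The part of these cells in the levels of Il17a and Il21 was not tested.

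The genes with the pattern most like Il17a over the 12 arrays, by Pearson correlation among 12175 genes, were Ift57, a protein of cilia, with r = 0.97, and Cpd, a carboxypeptidase, Acpp, an acid phosphatase, Ezh1, a histone methyltransferase, Dock10, a guanine nucleotide exchange factor, and Pfas, an enzyme of purine synthesis, each with r = 0.94. Ift57 had 202.3, 230 and 313.9 on SKG arrays, against 104.6, 104 and 150.9 on BALB arrays. For Il21 they were Esm1, a secreted proteoglycan, with r = 0.98, Tgm2, a transglutaminase, with r = 0.97, the adaptors Sh3pxd2b and Azi2 and the GTPase Gimap8, each with r = 0.95, and Fndc3a with r = 0.94. Esm1 had 357.9, 404.1 and 455.5 on SKG arrays, against 11.6, 17 and 37.7 on BALB arrays, and 96.1, 52.2 and 335.4 in the IFN-γ-deficient transfer, against 32.4, 7.8 and 98.7 in the IL-6-deficient transfer. Like Il21, Esm1 was highest in replicate 3 of both transfers.

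The lists of the genes most like Il17a and most like Il21 held no gene in common. The Pearson correlation between Il17a and Il21 was 0.82 and the Spearman correlation 0.79. Il21 ranked 204 among the genes ordered by likeness to Il17a, and Il17a ranked 94 among those ordered by likeness to Il21. These correlations follow the differences between 4 groups and share the arrays and their normalization, so they are descriptions and carry no p.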

How the data were processed

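RNA was hybridised to Affymetrix Mouse Genome 430 2.0 arrays after biotin labelling by in vitro transcription, per the labels' protocols. The deposited table holds a linear intensity for each of 45101 probe sets on each array. How the intensities were computed and normalized is not given in the sources used here, and no depth applies to arrays, whose number limits the precision.

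The 64 control probe sets were removed. The array annotation gave 34945 probe sets a single gene, 932 several and did not list 9160, and symbols were updated by gene ID to GRCm38.p6 for 34754. The arrays of each comparison were quantile normalized together and taken as log2(intensity + 16), which understates changes of dim genes. Each of 18193 genes was represented by its brightest probe set (mean of 12 arrays), and genes were tested where their mean over the arrays fitted was at or above the 40th percentile of probe sets. Comparisons were fitted with limma 3.58.1 in R 4.3.3 (functions lmFit and eBayes, trend on), two-sided, at a Benjamini-Hochberg adjusted p threshold of 0.05 over all genes tested. A common fit of 12 arrays gave the difference between the comparisons. The fits were tested on simulated data.

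The members and the gene lists were chosen with earlier results of these data known. In each pathway list the text names up to 4 passing members with the smallest p per comparison, Il17ra and Il21r, for each cytokine the 6 genes of highest correlation over the arrays, and Ifng, Il6 and Zap70. Other genes named were chosen after their values were seen. Il17f, Il22, Il23r, Il2rg and the other list genes without a probe set of their own are not analysed here, and Il17rc lay below the floor. Promoter windows come from RefSeq.

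Replicate numbers 1 to 3 are shared by all groups. Arrays of 1 number deviated together from their group means, with correlations over genes of 0.13, 0.20 and 0.33 (SKG with BALB) and 0.46, 0.45 and 0.70 (transfers), all above 0.1. Fits with the number as a block were therefore given beside the main fits, which hold no block. Replicates 1 and 2 also correlated across numbers, at 0.17 and 0.17 and at 0.44 and 0.41, so the block mainly sets replicate 3 apart. No label states separate animals behind the replicates, so the p-values describe the spread among these arrays, which may be technical.

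Alternatives were added constants of 1 and 64, a 60th percentile filter and none, no normalization and trimmed mean scaling, no trend, the replicate block, array weights, a median over each gene's probe sets, every probe set, all 12 arrays in one fit, and each array left out. Replicates 1 and 2 only, and replicate 3 as a term, were chosen after seeing the data.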

Additional observations from a re-analysis of the deposited data

How the results depend on the processing

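Between SKG and BALB, Il17a and Il21 passed under all 20 alternatives, with log2 fold changes of 4.67 to 5.20 and 3.14 to 3.71 and adjusted p of at most 0.00041 and 0.0016. The number of genes passing there was 3321, and it was 1960 without normalization, 5124 with array weights, 5443 over every probe set and 5070 with replicates 1 and 2 only. It ran from 2000 to 3907 with each array left out, with 2000, 2062 and 2130 without SKG replicate 1, SKG replicate 2 and BALB replicate 1.

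Between the transfers 14 genes passed, with 532 at an unadjusted p under 0.05. The count was 219 with the replicate block, 187 with array weights, 9 with the median of probe sets, 30 with all 12 arrays in one fit, 501 with replicates 1 and 2 only and 352 with replicate 3 as a term. With each array left out it ran from 2 to 26, at 2 and 4 without IFN-γ-deficient replicates 1 and 2, 5 and 4 without IL-6-deficient replicates 1 and 2, and 26 without IL-6-deficient replicate 3.

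The Il17a transfer difference passed at 2.38 with the replicate block, 2.70 with array weights (adjusted p = 0.00036), 2.39 with all 12 arrays in one fit (0.041), 2.68 with replicates 1 and 2 only (1.6e-07) and 2.38 with replicate 3 as a term (8.4e-05). It ran from 2.05 to 2.94 with each array left out. The Il21 transfer difference passed at 1.29 with the block, 1.26 with replicates 1 and 2 only (2.8e-05) and 1.29 with replicate 3 as a term (7.0e-06), and ran from 0.59 to 1.96 with each array left out.

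The difference between the comparisons ran from 1.87 to 2.86 for Il17a with each array left out. For Il21 it passed at 1.95 with the block, 2.09 with array weights (adjusted p = 0.00082), 2.12 with replicates 1 and 2 only (1.9e-07) and 1.95 with replicate 3 as a term (8.5e-06), and ran from 1.23 to 2.64 with each array left out. The dimmer Il21 probe set turned direction between the transfers at -0.54 without IFN-γ-deficient replicate 3, -0.18 without IL-6-deficient replicate 1 and -0.0070 without IL-6-deficient replicate 2, and reached 1.36 without IL-6-deficient replicate 3. The cause of these shifts was not tested. The call of Tgfbr2 (adjusted p = 0.053) and of Ifng in SKG (0.083) was lost without normalization, and that of Il6 in SKG (0.088) and Zap70 (0.11) with all 12 arrays in one fit. With the block Bcl6 and Cd40lg passed as lower in SKG, and no passing call of a gene named in that comparison was lost.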
